A study of Mus musculus with 27 samples.

Results

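The genes described here make cholesterol and fatty acids or control their synthesis: 29 genes were listed, and 28 of them had an array probe set assigned to that gene symbol alone (Acat2 was not analysed here). For each gene the probe set with the highest mean log2 intensity over all 27 arrays was used, and the 28 genes stand among 18193 genes with such a probe set. All 28 passed the filter on low values (log2 intensity of at least 5 on at least 3 arrays), as did 15711 of all genes. The cells were KUSA4b10, an established mouse line of marrow stroma with an osteoblast-like potential. Cultures were left untreated or given the parathyroid hormone fragment PTH(1–34) at 10 nM or the parathyroid hormone-related protein PTHrP(1–141) at 20 nM, and RNA was taken after 1, 6 or 24 h, with 3 arrays in each of the 9 groups. No genotype differs between the groups, and the line is the only source of cells. The ligands differ in sequence, length and dose together, so a difference between them is one between groups, in which the 3 cannot be told apart. The labels do not say that replicates came from separate cultures, so p-values measure the spread between arrays, which may be technical.

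Cholesterol is built from acetyl-CoA through mevalonate, isoprenoid diphosphates, squalene and a series of sterol intermediates. When membrane sterol runs low, Scap carries the SREBP transcription factors, encoded by Srebf1 and Srebf2, out of the endoplasmic reticulum, proteases free their active part, and most genes of the pathway are transcribed more. When sterol is ample, the Insig proteins hold Scap back. SREBP also drives the fatty acid enzymes, and in osteoblast-lineage cells both ligands act through Pth1r, a receptor that raises cyclic AMP.

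SREBP acts at promoters with the trimeric factor NF-Y, which reads CCAAT, so the 250 bases before the start of 5 genes are shown. These are an early enzyme with the sterol regulatory letters, the gene with the steepest untreated fall and the sterol sensor Insig1. The others are the only listed gene called with PTH at 1 h and the only sterol enzyme called lower with PTH at 6 h. RefSeq (GRCm38.p6) windows were matched by symbol for 23 of the 29 listed genes (Sqle, Fdft1, Fdps, Stard4, Scd1 and Scd2 have none here). In the sequences, written 5′ to 3′ on the gene's strand, capitals mark the NF-Y letters CCAAT (or their reverse complement), the E-box and the sterol regulatory element, whose letters follow below. Hmgcs1 is at chr13:119690101-119690350 on the plus strand, Idi1 at chr13:8885356-8885605 on the plus strand, Insig1 at chr5:28071162-28071411 on the plus strand, Cyp51 at chr5:4104698-4104947 on the minus strand and Ebp at chrX:8193513-8193762 on the minus strand.
Hmgcs1: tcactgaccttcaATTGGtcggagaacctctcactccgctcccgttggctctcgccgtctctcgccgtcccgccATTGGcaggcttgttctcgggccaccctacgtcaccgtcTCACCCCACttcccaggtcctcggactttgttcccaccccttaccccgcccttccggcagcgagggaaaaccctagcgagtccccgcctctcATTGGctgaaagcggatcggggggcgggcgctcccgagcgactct
Idi1: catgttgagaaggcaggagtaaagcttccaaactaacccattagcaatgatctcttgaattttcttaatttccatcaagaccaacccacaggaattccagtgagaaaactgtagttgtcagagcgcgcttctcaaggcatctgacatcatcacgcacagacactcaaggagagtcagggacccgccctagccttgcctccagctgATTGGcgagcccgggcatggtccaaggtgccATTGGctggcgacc
Insig1: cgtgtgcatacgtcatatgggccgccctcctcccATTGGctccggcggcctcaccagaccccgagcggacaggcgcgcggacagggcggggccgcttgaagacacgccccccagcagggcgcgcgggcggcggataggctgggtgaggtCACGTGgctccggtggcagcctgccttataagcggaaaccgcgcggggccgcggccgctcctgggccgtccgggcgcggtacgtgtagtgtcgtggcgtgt
Cyp51: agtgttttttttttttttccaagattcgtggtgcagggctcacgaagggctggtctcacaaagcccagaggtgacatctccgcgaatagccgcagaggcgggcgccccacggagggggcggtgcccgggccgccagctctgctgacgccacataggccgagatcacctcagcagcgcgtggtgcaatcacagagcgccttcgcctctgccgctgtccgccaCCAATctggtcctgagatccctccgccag
Ebp: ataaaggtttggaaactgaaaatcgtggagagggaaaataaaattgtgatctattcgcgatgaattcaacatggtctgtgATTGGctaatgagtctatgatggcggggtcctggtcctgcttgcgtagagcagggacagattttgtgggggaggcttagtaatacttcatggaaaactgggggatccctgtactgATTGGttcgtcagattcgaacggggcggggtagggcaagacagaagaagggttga

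Over the full windows (250 bases before to 50 after the start, 300 in all, both strands; 31 windows, a gene counting with any of its own), CCAAT was present for 20 of the 23 genes, or 87%, against 42.2% of the 12557 tested genes with a window. CACGTG, an E-box that SREBP also reads, was present for 5 (Hsd17b7, Sc5d, Dhcr7, Insig1 and Scap), or 21.7%, against 10.8%. TCACNCCAC, the letters of the classical sterol regulatory element, was present for Hmgcs1, 4.35% of the genes against 1.44%. The cyclic AMP response element TGACGTCA was in no window of the 23 genes, against 3.15% of tested genes with a window. The shorter TGACG, which the full element contains, was present for 9, or 39.1%, against 31.8%. Ebp, the only sterol enzyme called lower with PTH at 6 h, has CCAAT too. These matches are descriptions of letters in a window, and no binding was measured.

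Differences below are log2 differences between group means from limma on log2 intensities, with the standard error (SE), and a gene is called at an adjusted p under 0.05 over all 15711 genes tested. Counts with 1 array left out are given without the share of all genes called in those fits. Replicate arrays correlated at 0.9882 to 0.9982 across genes, with the lowest value in the PTHrP 1 h group, whose replicate 3 stood apart; results at 1 h are given with and without it. Stromal and osteoblast markers matched the label. Of 10 listed, 7 had a probe set assigned to that symbol alone, and these passed the filter. Among them median log2 intensity was 14.67 for Col1a1, 12.77 for Alpl and 11.02 for Pth1r. Their summed intensity was 80552.6 to 82795.4 in untreated cells at 6 h, 70391 to 71701 with PTH and 73541.6 to 78437 with PTHrP. At 24 h these ranges were 65076 to 66632.9, 43272.6 to 45529.9 and 50162.5 to 59208. Sp7, Pth1r and Ibsp were called lower at 6 h, at -1.85, -1.12 and -0.90 with PTH and -1.20, -0.39 and -0.56 with PTHrP. The other stromal markers were not called at 6 h. Sp7 and Pth1r were higher with PTHrP than with PTH, at 0.65 and 0.72. By 24 h PTH had lowered all but Cxcl12, with Ibsp at -2.86, and PTHrP had lowered Col1a1, Alpl, Sp7 and Ibsp (-1.57). Their part in the results at those times was not tested. Of 9 macrophage and blood markers 8 had a probe set of that symbol alone and summed to 603.3 to 805.8 over all groups. Ptprc and Itgam, which define leukocytes, did not pass the filter. The other 6 passed it, with median log2 intensity of 7.85 for Csf1r, 7.38 for Cd14 and 7.09 for Lyz2. Of these, Cd68 was called with PTH, at 0.46 at 6 h and -0.47 at 24 h, and in untreated cells at 0.52 from 1 to 24 h. Cd14 was called at 24 h, at 0.44 with PTH and 0.40 with PTHrP, and the part of these markers in the results was not tested. The 4 endothelial markers summed to 167.7 to 256. RNA was taken from whole cultures, so fewer cells of a type and less RNA per cell cannot be told apart. The 3′ minus 5′ log2 difference of the Actb control probe sets, a sign of RNA quality, was 0.23 in untreated cells at 1 h, 0.25 at 6 h and 0.38 at 24 h. With PTH it was 0.34 at 6 h (difference 0.082, exact permutation p = 0.1, two-sided, the smallest p that 3 against 3 arrays allow), and with PTHrP 0.30 (exact permutation p = 0.3). At 24 h it was 0.42 with PTH and 0.44 with PTHrP (exact permutation p = 0.1 for both). For Gapdh the untreated values were -0.18, -0.20 and -0.21 at the 3 times, and at 6 h they were -0.17 with PTH and -0.15 with PTHrP (exact permutation p = 0.1 for both). The part of these differences in the results was not tested.

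**Figure D1:**
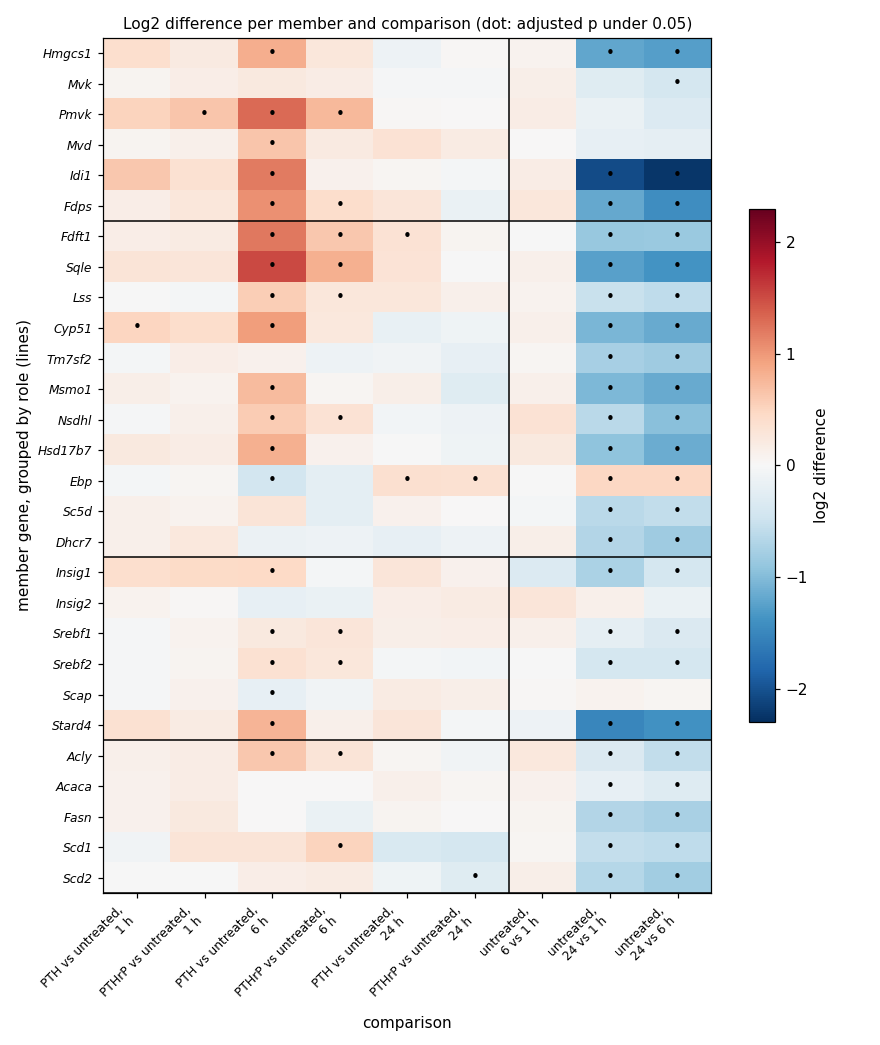
Log2 difference of each of the 28 genes (rows, grouped by role) in 9 comparisons (columns); red is higher, blue lower, and a dot marks an adjusted p under 0.05. The column for PTH at 6 h holds 17 higher and 2 lower calls, and the columns for untreated cells at 24 h are blue except Ebp, Scap and, against 1 h, Insig2.

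In untreated cells the pathway fell late. From 1 to 6 h none of the 28 genes was called by limma (2.27% of all genes were called). The count of calls was 1 without untreated 1 h replicate 3, PTHrP 1 h replicate 3 or PTHrP 6 h replicate 2. At an unadjusted p under 0.05 there were 4 of the 28, and no share of all genes is given for that threshold. At 24 h against 1 h, 22 of 28 were lower and 1, Ebp, higher, where 11.5% of all genes were called lower and 11.6% higher. The median of the 28 was -0.64, and that of all genes -0.0052. Against 6 h, 23 were lower and 1 higher (all genes 11.4% lower and 12.1% higher), with a median of -0.67. The sterol steps contributed 10 lower calls of 11 at both comparisons, and all 5 fatty acid genes were lower at both. Of the 6 mevalonate genes, 3 were lower against 1 h and 4 against 6 h, and Pmvk and Mvd were called in neither. Of the 6 genes of sensing and transport, Insig1, Srebf1, Srebf2 and Stard4 were lower at both. The arrays of 24 h lay below all arrays of 1 h for 22 of the 28 genes, against 20.6% of all genes. Calls for 21 of the 23 genes (24 against 1 h) and 22 of the 24 (24 against 6 h) remained with any 1 of the 6 arrays left out. The exceptions were Srebf1 and Acaca against 1 h, and Mvk and Insig1 against 6 h.

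**Figure D2:**
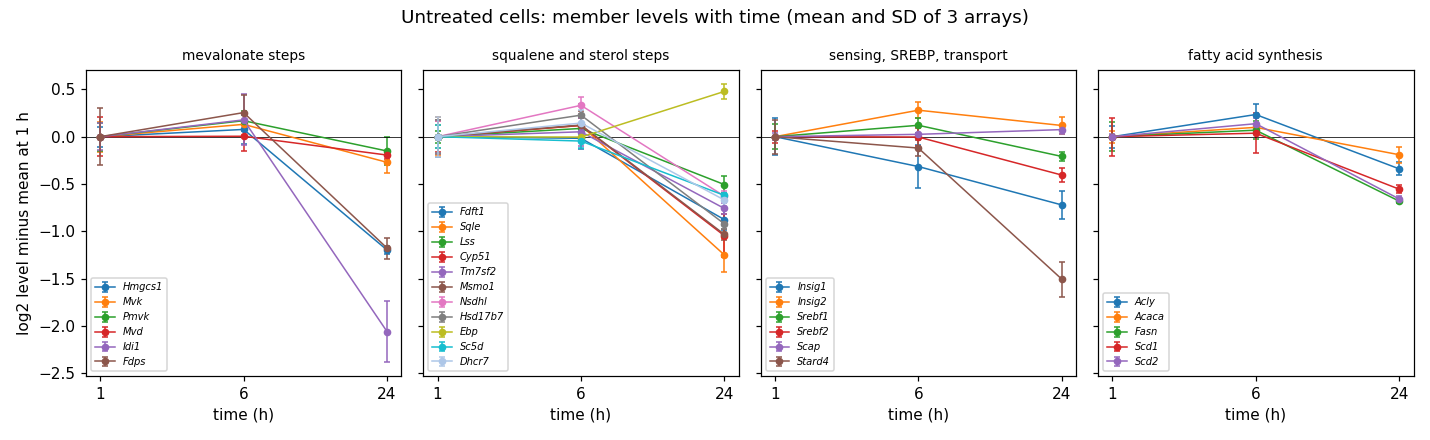
Untreated cells: log2 level of each gene minus its mean at 1 h (y axis) at 1, 6 and 24 h (x axis, spaced evenly), mean and SD of 3 arrays, in 4 panels by role. The Idi1 line ends at -2.06, Stard4 at -1.50 and Sqle at -1.25, while Ebp ends at 0.48.

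At 6 h most of the genes were higher with PTH: 17 of 28 were called higher and 2, Ebp and Scap, lower, where 11.4% of all genes were called higher and 17.9% lower. The median of the 28 was 0.51, and that of all genes was -0.0034. PTHrP raised 10 of 28 and lowered none (all genes 8.7% higher, 12.2% lower), with a median of 0.18 beside 0.0307. The gene most raised by both was Sqle, at 2.88-fold with PTH and 1.76-fold with PTHrP. With PTH, 5 of 6 mevalonate genes, 7 of 11 sterol genes, 4 of 6 genes of sensing and transport and 1 of 5 fatty acid genes were higher. With PTHrP the same roles gave 2, 4, 2 and 2. All PTH arrays lay above all untreated arrays for 20 genes and below for 3 (18.3% and 25.6% of all genes); for PTHrP these were 12 and 3 (18.9% and 21%). Both comparisons use the same 3 untreated arrays. Without any 1 of the 6 arrays 16 of the 19 PTH calls remained; the exceptions were Insig1, Srebf1 and Scap. The PTHrP count was 5 without untreated replicate 2 and 5 without PTHrP replicate 2, and Pmvk, Fdft1, Sqle and Srebf1 were called in every such fit.

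**Figure D3:**
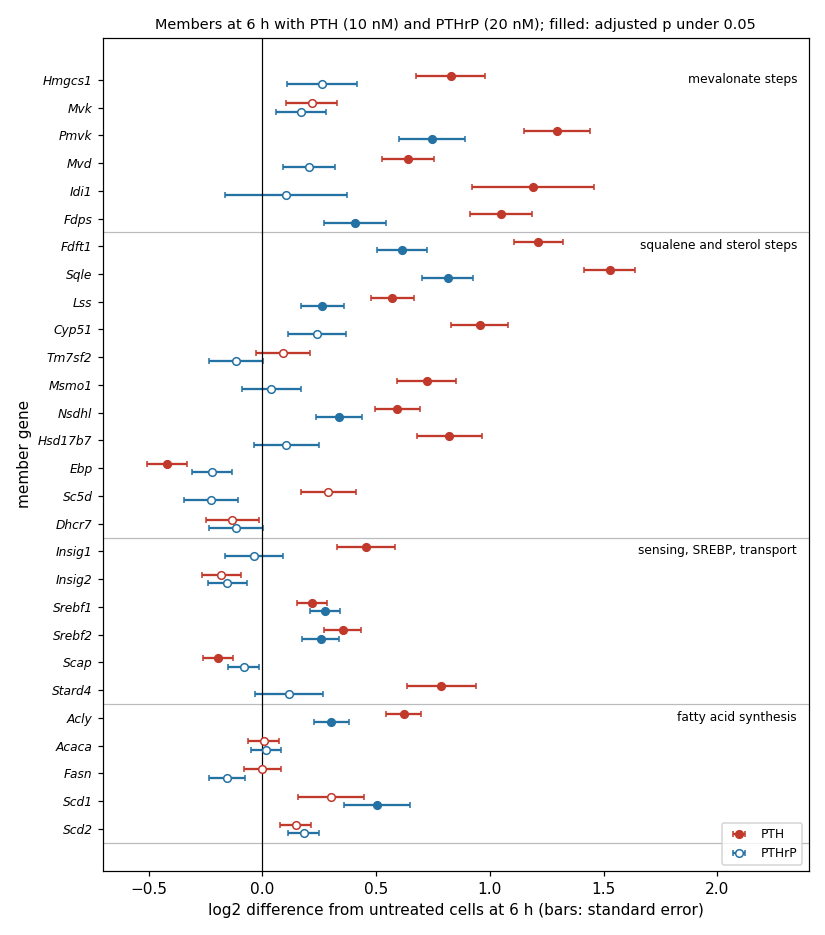
Log2 difference from untreated cells at 6 h (x axis) for each of the 28 genes (y axis, by role), red for PTH at 10 nM and blue for PTHrP at 20 nM; bars are standard errors and filled points have an adjusted p under 0.05. The widest gap is at Idi1, 1.19 with PTH and 0.10 with PTHrP.

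Set directly against PTH at 6 h, PTHrP was lower for 15 of 28 genes and higher for none, where 7.62% of all genes were called, 3.17% lower and 4.45% higher. The median was -0.31, beside 0.0365 for all genes. These were Hmgcs1, Pmvk, Mvd, Idi1 and Fdps of the mevalonate steps, Fdft1, Sqle, Lss, Cyp51, Msmo1, Hsd17b7 and Sc5d of the sterol steps, Insig1 and Stard4, and Acly. Their differences ran from -0.31 (Lss) to -1.08 (Idi1). The PTHrP arrays lay below all PTH arrays for 14 genes, against 10.6% of all genes. The count was 8 without PTH replicate 2, PTH replicate 3 or PTHrP replicate 3. The genes called in every fit with 1 of the 6 arrays left out were Fdps, Fdft1, Sqle, Cyp51, Msmo1, Hsd17b7, Sc5d and Stard4.

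At 1 h few genes were called. With PTH the single call was Cyp51 (1.74% of all genes were called, 1.44% higher), and with PTHrP it was Pmvk (1.81%, 1.57% higher). At an unadjusted p under 0.05 the counts were 7 of the 28 with PTH and 8 with PTHrP. The shares of all genes in this paragraph are for adjusted calls, and none is given for unadjusted counts. The Cyp51 call was lost without any 1 of its 6 arrays, and with 1 of all 27 arrays left out the PTH count ran from 0 to 3, highest without PTHrP replicate 3. Without PTHrP replicate 3, 7 genes were called higher with PTHrP. These were Hmgcs1 (0.46), Pmvk (0.83), Idi1 (0.88), Cyp51 (0.57), Insig1 (0.51), Stard4 (0.46) and Fasn (0.31). The share of all genes called in that fit is not given, so these calls are not set against it. With untreated replicate 2, PTHrP replicate 1 or PTHrP replicate 2 left out, none was called. PTHrP against PTH at 1 h gave no call by limma among the 28 or among all genes (0%), with 1 of the 28 at an unadjusted p under 0.05.

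By 24 h few ligand differences were called. With PTH, Fdft1 and Ebp were higher and none was lower (11.6% of all genes were called, 5.69% higher and 5.96% lower). With PTHrP, Ebp was higher and Scd2 lower (6.1% called, 3.09% higher and 3.02% lower). PTHrP against PTH gave no call by limma (1.16% of all genes were called). The median of that comparison was -0.081, beside -0.0064 for all genes, and 23 of the 28 differences were negative. Of the 28, 6 had an unadjusted p under 0.05, a threshold for which no share of all genes is given. The PTH count at 24 h was 4 without PTH 6 h replicate 1, which enters through the pooled spread, and 1 without untreated replicate 2 or 3 or PTH replicate 1 of that time. Leaving out 1 array of another group also gave 1 for untreated replicate 1, any PTH replicate or PTHrP replicate 1 at 1 h, for untreated replicate 1 or 2 or PTH replicate 2 at 6 h, and for PTHrP replicate 1 or 3 at 24 h. The PTHrP count was 0 without untreated replicate 3 or PTHrP replicate 1 and 1 without PTHrP replicate 3.

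The PTH difference was itself tested between 6 and 24 h: it became more negative for 13 genes and more positive for 3 (20.4% of all genes were called, 7.82% in the negative and 12.6% in the positive direction). For PTHrP it did so for 7 and 1 (12.1%; 5.03% and 7.08%). The PTH changes were largest for Pmvk (-1.27), Sqle (-1.22), Idi1 (-1.14) and Cyp51 (-1.13), and positive for Ebp (0.79), Scap (0.39) and Insig2 (0.34). The PTHrP count was 5 without untreated 6 h replicate 2, PTHrP 6 h replicate 2 or untreated 24 h replicate 3. For most of these genes the untreated level at 24 h was also lower, as given above.

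The mevalonate steps are described first, with log2 intensity on each array in the order of replicates 1 to 3. Hmgcs1 makes HMG-CoA, the precursor of mevalonate. Untreated cells had 10.79, 10.75 and 10.95 at 1 h, 10.93, 10.74 and 11.04 at 6 h and 9.68, 9.60 and 9.60 at 24 h. At 6 h the level was 11.52, 11.72 and 11.94 with PTH and 11.16, 11.30 and 11.03 with PTHrP. At 6 h every PTH array was above every untreated array, and the PTHrP arrays overlapped the untreated ones. At the other times PTH gave 11.20, 11.15, 11.26 at 1 h and 9.75, 9.28, 9.53 at 24 h, and PTHrP gave 11.17, 11.40, 10.52 at 1 h and 9.71, 9.62, 9.62 at 24 h. Hmgcs1 was 1.77-fold higher with PTH at 6 h (log2 difference 0.83 ± 0.15, SE; adjusted p = 0.000132). In untreated cells the level at 24 h against 1 h was -1.20 ± 0.15 (log2, SE; adjusted p = 1.64e-06).

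Pmvk, phosphomevalonate kinase, adds the second phosphate to mevalonate. Without ligand the level of Pmvk was 7.26, 7.09 and 7.38 at 1 h, 7.52, 7.33 and 7.38 at 6 h and 7.14, 6.93 and 7.20 at 24 h. PTH gave 7.85, 7.70 and 7.74 and PTHrP 8.15, 8.00 and 7.50 at 1 h. The 6 h arrays read 8.38, 8.98 and 8.76 with PTH and 8.42, 7.99 and 8.06 with PTHrP. Both ligands lay above untreated cells on all arrays at 1 and 6 h, and the groups overlapped at 24 h. At 24 h PTH gave 7.15, 7.02 and 7.19 and PTHrP 7.18, 7.10 and 7.03. The rise with PTH at 6 h was 2.45-fold (log2 difference 1.30 ± 0.14, SE; adjusted p = 1.27e-07). With PTHrP Pmvk was 1.68-fold higher (log2 difference 0.74 ± 0.14, SE; adjusted p = 0.000424). PTHrP against PTH at 6 h differed by -0.55 ± 0.14 (log2, SE; adjusted p = 0.0195). The untreated change to 24 h was not called, at -0.15 ± 0.14 (log2, SE; adjusted p = 0.565).

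Idi1 isomerises isopentenyl diphosphate, the unit from which isoprenoids are joined. Idi1 stood at 8.65, 8.93 and 8.83 in untreated cells at 1 h, at 9.20, 8.68 and 9.05 at 6 h and at 6.67, 6.46 and 7.09 at 24 h. With PTH the 1 h values were 9.39, 9.36 and 9.49, and with PTHrP 9.59, 9.76 and 8.11. After 6 h, PTH arrays of Idi1 read 9.93, 10.20 and 10.37 and PTHrP arrays 8.86, 9.48 and 8.90. PTH arrays were above untreated ones at 1 and 6 h, replicate 3 of PTHrP at 1 h was the lowest of the 9 arrays of that time, and at 6 h 1 PTHrP array stood above the untreated range. The 24 h levels were 6.96, 6.61 and 6.82 with PTH and 6.63, 6.83 and 6.64 with PTHrP. Idi1 was 2.28-fold higher with PTH at 6 h (log2 difference 1.19 ± 0.27, SE; adjusted p = 0.00118). PTHrP against PTH differed by -1.08 ± 0.27 (log2, SE; adjusted p = 0.0134). The untreated fall from 6 to 24 h was the largest of the 28 genes, at -2.24 ± 0.27 (log2, SE; adjusted p = 6.82e-07).

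Fdps joins these units into farnesyl diphosphate, the branch point to sterols and protein prenylation. The untreated arrays read 9.74, 9.70 and 10.24 at 1 h, 10.31, 9.94 and 10.19 at 6 h and 8.65, 8.65 and 8.84 at 24 h. Levels of Fdps at 6 h were 11.06, 11.25 and 11.28 with PTH and 10.36, 10.85 and 10.44 with PTHrP. All PTH and all PTHrP arrays lay above the untreated arrays at 6 h, and PTH above PTHrP. PTH arrays otherwise read 10.04, 10.04, 10.07 at 1 h and 9.06, 8.83, 9.12 at 24 h, and PTHrP arrays 10.14, 10.22, 10.08 at 1 h and 8.59, 8.38, 8.71 at 24 h. The rise with PTH was 2.07-fold (log2 difference 1.05 ± 0.13, SE; adjusted p = 1.13e-06). With PTHrP Fdps was 1.33-fold higher (log2 difference 0.41 ± 0.13, SE; adjusted p = 0.0319). In untreated cells the change from 6 to 24 h was -1.43 ± 0.13 (log2, SE; adjusted p = 1.77e-08).

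The other 2 genes of these steps moved less. Mvd, the decarboxylase that yields isopentenyl diphosphate, differed by 0.64 ± 0.11 (SE; adjusted p = 9.07e-05) with PTH at 6 h and by 0.21 ± 0.11 (SE; adjusted p = 0.225) with PTHrP. Mvk, mevalonate kinase, was not called for either ligand at any time, with 0.22 and 0.17 at 6 h. Its untreated change from 6 to 24 h was -0.40 ± 0.11 (SE; adjusted p = 0.0088).

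Of the squalene and sterol steps, Fdft1 makes squalene and commits farnesyl diphosphate to sterols. In untreated cells Fdft1 was at 9.51, 9.39 and 9.80 at 1 h, 9.49, 9.48 and 9.68 at 6 h and 8.82, 8.63 and 8.63 at 24 h. At 6 h the level was 10.54, 10.80 and 10.95 with PTH and 10.11, 10.36 and 10.03 with PTHrP. PTH gave 9.19, 8.94 and 8.96 and PTHrP 8.73, 8.84 and 8.70 at 24 h. At 6 h the untreated, PTHrP and PTH arrays formed separate ranges in that order; at 24 h PTH stayed above untreated, and PTHrP overlapped it. Levels at 1 h were 9.71, 9.75 and 9.70 with PTH and 9.73, 9.82 and 9.71 with PTHrP. Fdft1 was 2.32-fold higher with PTH at 6 h (log2 difference 1.21 ± 0.11, SE; adjusted p = 3.46e-09). The rise with PTHrP was 1.53-fold (log2 difference 0.61 ± 0.11, SE; adjusted p = 0.000159). At 24 h PTH differed by 0.34 ± 0.11 (log2, SE; adjusted p = 0.0453). That 24 h call was lost without 4 of its 6 arrays in turn.

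Sqle epoxidises squalene, a controlled step of the sterol branch. Untreated cells had 10.00, 10.04 and 10.38 at 1 h, 10.27, 10.13 and 10.38 at 6 h and 9.05, 8.70 and 8.92 at 24 h. The 6 h arrays read 11.59, 11.87 and 11.90 with PTH and 11.06, 11.21 and 10.95 with PTHrP. With PTH the 24 h values were 9.25, 9.13 and 9.21, and with PTHrP 8.89, 8.96 and 8.79. The 3 groups did not overlap at 6 h, with PTH the highest; at 24 h PTH was just above untreated, and PTHrP overlapped it. At 1 h PTH gave 10.46, 10.39 and 10.48 and PTHrP 10.45, 10.59 and 10.24. With PTH at 6 h Sqle was 2.88-fold higher (log2 difference 1.53 ± 0.11, SE; adjusted p = 7.66e-11). Sqle was 1.76-fold higher with PTHrP (log2 difference 0.81 ± 0.11, SE; adjusted p = 5.27e-06). PTHrP against PTH differed by -0.71 ± 0.11 (log2, SE; adjusted p = 0.000246). The untreated change from 1 to 24 h was -1.25 ± 0.11 (log2, SE; adjusted p = 6.86e-09).

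Cyp51 is the cytochrome P450 that demethylates lanosterol, the first sterol. Without ligand the level of Cyp51 was 9.59, 9.85 and 9.89 at 1 h, 9.84, 9.87 and 9.99 at 6 h and 8.97, 8.51 and 8.72 at 24 h. After 1 h, PTH arrays of Cyp51 read 10.33, 10.19 and 10.30 and PTHrP arrays 10.36, 10.34 and 9.84. Levels of Cyp51 at 6 h were 10.62, 11.05 and 10.89 with PTH and 10.16, 10.16 and 10.10 with PTHrP. At 1 h all PTH arrays were above untreated, and PTHrP replicate 3 lay within the untreated range; at 6 h all PTHrP arrays lay between untreated and PTH. The 24 h levels were 8.66, 8.44 and 8.58 with PTH and 8.69, 8.62 and 8.60 with PTHrP. The rise with PTH at 1 h was 1.41-fold (log2 difference 0.49 ± 0.13, SE; adjusted p = 0.0419). With PTH at 6 h Cyp51 was 1.94-fold higher (log2 difference 0.96 ± 0.13, SE; adjusted p = 1.72e-06). PTHrP at 6 h was not called, at 0.24 ± 0.13 (log2, SE; adjusted p = 0.201).

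Msmo1 removes the sterol methyl groups that follow. Msmo1 stood at 9.52, 9.53 and 9.84 in untreated cells at 1 h, at 9.76, 9.60 and 9.90 at 6 h and at 8.67, 8.55 and 8.58 at 24 h. At 6 h the level was 10.30, 10.51 and 10.61 with PTH and 9.66, 10.04 and 9.68 with PTHrP. PTH was above untreated on all arrays at 6 h, and PTHrP overlapped untreated. Elsewhere Msmo1 was at 9.71, 9.69, 9.91 at 1 h and 8.85, 8.61, 8.75 at 24 h with PTH, and at 9.76, 9.97, 9.39 at 1 h and 8.37, 8.43, 8.18 at 24 h with PTHrP. Msmo1 was 1.65-fold higher with PTH (log2 difference 0.72 ± 0.13, SE; adjusted p = 0.000106). PTHrP against PTH differed by -0.68 ± 0.13 (log2, SE; adjusted p = 0.00177). The untreated change from 1 to 24 h was -1.03 ± 0.13 (log2, SE; adjusted p = 1.46e-06).

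Among the remaining sterol enzymes, Hsd17b7, which reduces the keto intermediate of that demethylation, differed by 0.82 ± 0.14 (SE; adjusted p = 6.49e-05) with PTH at 6 h. Nsdhl, the dehydrogenase of the same reaction, differed by 0.59 ± 0.10 (SE; adjusted p = 4.74e-05) with PTH and 0.34 ± 0.10 (SE; adjusted p = 0.0167) with PTHrP. For Lss, which folds squalene epoxide into lanosterol, these values were 0.57 ± 0.094 (SE; adjusted p = 3.50e-05) and 0.26 ± 0.094 (SE; adjusted p = 0.0488). Tm7sf2, Sc5d and Dhcr7 were called with neither ligand, their PTH values at 6 h being 0.09, 0.29 and -0.13. All 3 fell in untreated cells from 1 to 24 h, by 0.76, 0.62 and 0.67 on the log2 scale. Sc5d was lower with PTHrP than with PTH at 6 h, at -0.52 ± 0.12 (SE; adjusted p = 0.00835).

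Ebp, the isomerase that shifts a sterol ring double bond, was singled out after its values were seen. With PTH at 6 h and in untreated cells at 24 h its call was opposite to those of the other called sterol enzymes. The untreated arrays read 10.78, 10.66 and 10.91 at 1 h, 10.78, 10.74 and 10.82 at 6 h and 11.34, 11.27 and 11.17 at 24 h. PTH gave 10.28, 10.37 and 10.42 and PTHrP 10.72, 10.49 and 10.47 at 6 h. The 24 h arrays read 11.71, 11.67 and 11.51 with PTH and 11.66, 11.49 and 11.71 with PTHrP. At 6 h every PTH and PTHrP array lay below every untreated array; at 24 h every one lay above, on top of an untreated level that had itself risen. Levels at 1 h were 10.70, 10.82 and 10.69 with PTH and 10.78, 10.71 and 10.99 with PTHrP. PTH at 6 h differed by -0.42 ± 0.088 (log2, SE; adjusted p = 0.000566). PTHrP at 6 h was not called, at -0.22 ± 0.088 (log2, SE; adjusted p = 0.0814). At 24 h PTH differed by 0.37 ± 0.088 (log2, SE; adjusted p = 0.0058). PTHrP at 24 h differed by 0.36 ± 0.088 (log2, SE; adjusted p = 0.0115). The untreated rise from 6 to 24 h was 0.48 ± 0.088 (log2, SE; adjusted p = 0.000166). The 24 h call with PTHrP was lost without 3 of its 6 arrays in turn.

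**Figure D4:**
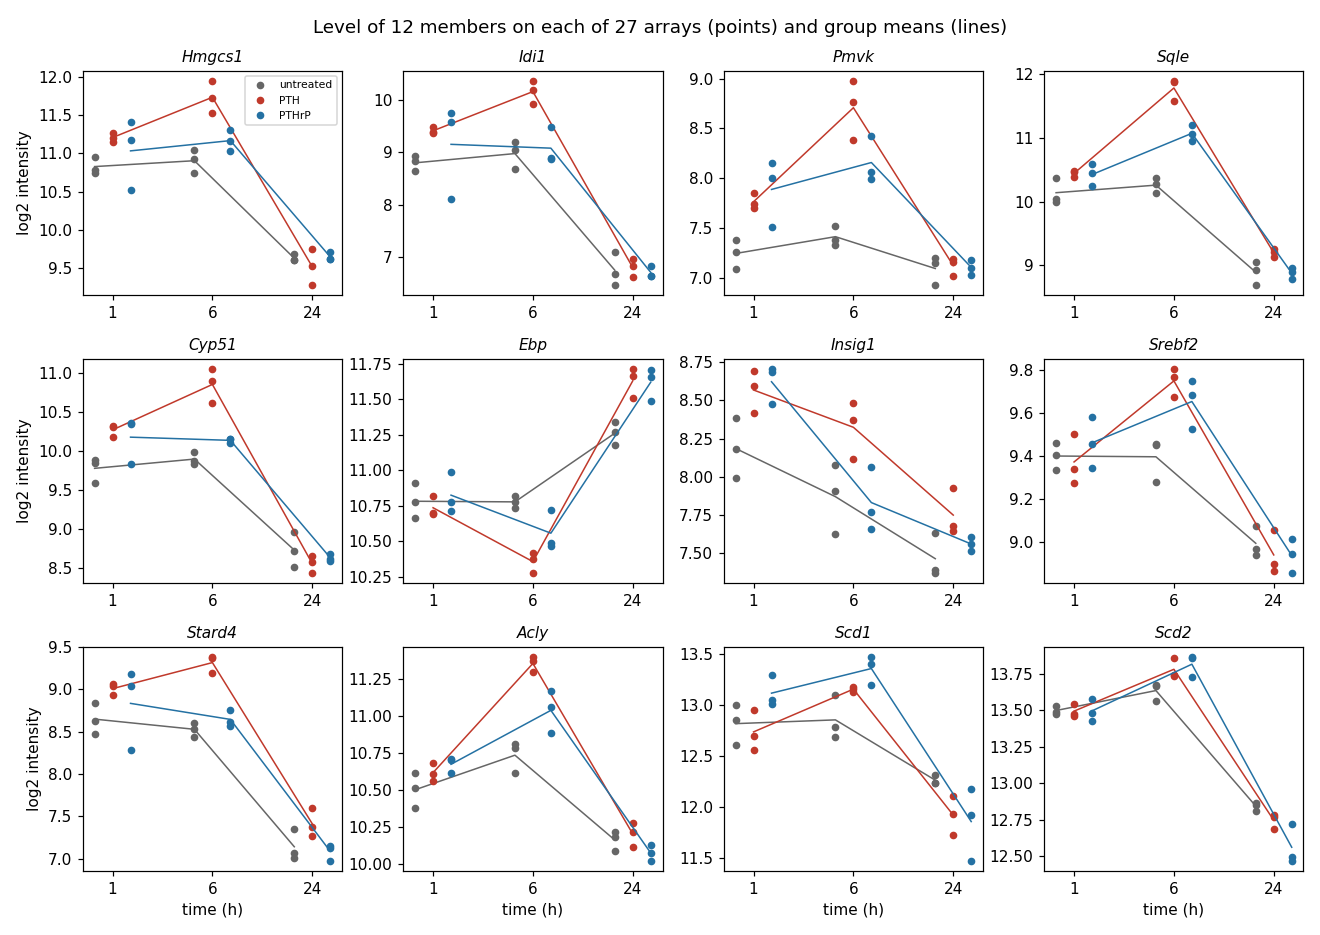
Log2 intensity (y axis) of 12 genes on each of the 27 arrays (points) at 1, 6 and 24 h (x axis, spaced evenly), with group means joined by lines: grey untreated, red PTH, blue PTHrP. The red mean is the highest of the 3 at 6 h for 9 genes, and Ebp is the panel in which the points rise to 24 h.

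In the group of sensing, SREBP and transport, Insig1 holds Scap in the endoplasmic reticulum and is itself a target of SREBP. In untreated cells Insig1 was at 7.99, 8.18 and 8.38 at 1 h, 8.07, 7.63 and 7.91 at 6 h and 7.37, 7.39 and 7.63 at 24 h. With PTH the 1 h values were 8.42, 8.59 and 8.69, and with PTHrP 8.69, 8.71 and 8.47. After 6 h, PTH arrays of Insig1 read 8.12, 8.37 and 8.49 and PTHrP arrays 7.66, 8.07 and 7.77. At 1 h every array of both ligands was above every untreated array; at 6 h this held for PTH and not for PTHrP. At 24 h PTH gave 7.92, 7.65 and 7.68 and PTHrP 7.61, 7.51 and 7.56. At 1 h neither ligand was called, with PTH at 0.38 ± 0.13 (log2, SE; adjusted p = 0.213). PTHrP at 1 h differed by 0.44 ± 0.13 (log2, SE; adjusted p = 0.104). Without PTHrP replicate 3 that difference was 0.51 and called. Against untreated cells at 6 h the level with PTH was 1.37-fold higher (log2 difference 0.45 ± 0.13, SE; adjusted p = 0.00798). The untreated level itself changed by -0.32 from 1 to 6 h, which was not called. PTHrP against PTH at 6 h differed by -0.49 ± 0.13 (log2, SE; adjusted p = 0.0185). The call with PTH at 6 h was lost without 2 of its 6 arrays in turn.

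Insig2, the related retention protein, was called with neither ligand at any time. Untreated cells had 9.73, 9.73 and 9.73 at 1 h, 10.00, 10.10 and 9.93 at 6 h and 9.95, 9.77 and 9.83 at 24 h. Levels of Insig2 at 6 h were 9.88, 9.83 and 9.77 with PTH and 9.96, 9.76 and 9.85 with PTHrP. PTH arrays lay below untreated ones at 6 h and PTHrP overlapped. At the other times PTH gave 9.70, 9.76, 9.98 at 1 h and 10.02, 9.90, 10.11 at 24 h, and PTHrP gave 9.82, 9.87, 9.60 at 1 h and 10.01, 10.15, 9.95 at 24 h. The PTH difference at 6 h was -0.18 ± 0.086 (log2, SE; adjusted p = 0.124). The change of the PTH difference from 6 to 24 h was 0.34 ± 0.12 (log2, SE; adjusted p = 0.0486).

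Srebf2 encodes the SREBP that mainly drives cholesterol genes. Without ligand the level of Srebf2 was 9.34, 9.46 and 9.40 at 1 h, 9.46, 9.28 and 9.45 at 6 h and 8.94, 9.08 and 8.97 at 24 h. At 6 h the level was 9.68, 9.80 and 9.77 with PTH and 9.75, 9.68 and 9.53 with PTHrP. Both ligands were above untreated on all arrays at 6 h and overlapped each other. PTH arrays otherwise read 9.50, 9.27, 9.34 at 1 h and 9.06, 8.87, 8.90 at 24 h, and PTHrP arrays 9.46, 9.58, 9.35 at 1 h and 8.86, 8.95, 9.01 at 24 h. With PTH Srebf2 was 1.28-fold higher (log2 difference 0.35 ± 0.082, SE; adjusted p = 0.00156). Srebf2 was 1.19-fold higher with PTHrP (log2 difference 0.26 ± 0.082, SE; adjusted p = 0.0266). The untreated change from 1 to 24 h was -0.41 ± 0.082 (log2, SE; adjusted p = 0.000586). The other probe set of this gene gave larger differences at 6 h, 1.01 with PTH and 0.49 with PTHrP.

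Srebf1 encodes the SREBP linked more to fatty acid genes. Srebf1 stood at 9.39, 9.63 and 9.57 in untreated cells at 1 h, at 9.74, 9.62 and 9.59 at 6 h and at 9.37, 9.28 and 9.31 at 24 h. PTH gave 9.86, 9.87 and 9.89 and PTHrP 10.00, 9.90 and 9.88 at 6 h. Both ligands were above untreated on all arrays at 6 h. Elsewhere Srebf1 was at 9.54, 9.43, 9.54 at 1 h and 9.43, 9.47, 9.45 at 24 h with PTH, and at 9.55, 9.67, 9.60 at 1 h and 9.41, 9.52, 9.51 at 24 h with PTHrP. The rise with PTH was 1.16-fold (log2 difference 0.22 ± 0.066, SE; adjusted p = 0.0135). With PTHrP Srebf1 was 1.21-fold higher (log2 difference 0.27 ± 0.066, SE; adjusted p = 0.00356).

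Scap, the escort of SREBP, was the other gene lower with PTH at 6 h. The untreated arrays read 9.86, 9.93 and 9.92 at 1 h, 9.91, 9.94 and 9.93 at 6 h and 9.93, 9.97 and 10.03 at 24 h. The 6 h arrays read 9.63, 9.75 and 9.81 with PTH and 9.95, 9.72 and 9.86 with PTHrP. PTH lay below untreated on all arrays and PTHrP overlapped untreated. At the other times PTH gave 9.85, 9.87, 9.91 at 1 h and 10.28, 10.13, 10.11 at 24 h, and PTHrP gave 9.95, 10.03, 10.02 at 1 h and 10.13, 10.05, 10.14 at 24 h. PTH differed by -0.19 ± 0.066 (log2, SE; adjusted p = 0.0283). At 24 h PTH was not called, at 0.20 ± 0.066 (log2, SE; adjusted p = 0.057). The 6 h call was lost without 5 of its 6 arrays in turn.

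Stard4 carries sterol between membranes in the cytosol. In untreated cells Stard4 was at 8.48, 8.63 and 8.84 at 1 h, 8.54, 8.44 and 8.61 at 6 h and 7.35, 7.07 and 7.01 at 24 h. With PTH the 1 h values were 9.03, 8.93 and 9.06, and with PTHrP 9.03, 9.18 and 8.29. After 6 h, PTH arrays of Stard4 read 9.19, 9.37 and 9.38 and PTHrP arrays 8.61, 8.76 and 8.56. At 1 h PTH was above untreated on all arrays and PTHrP replicate 3 was the lowest array; at 6 h PTH was above both other groups, which overlapped. The 24 h levels were 7.37, 7.27 and 7.60 with PTH and 7.13, 6.98 and 7.16 with PTHrP. Stard4 was 1.73-fold higher with PTH at 6 h (log2 difference 0.79 ± 0.15, SE; adjusted p = 0.000218). PTHrP against PTH differed by -0.67 ± 0.15 (log2, SE; adjusted p = 0.00672). The untreated change from 1 to 24 h was -1.50 ± 0.15 (log2, SE; adjusted p = 4.59e-08).

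Of the fatty acid genes, Acly cleaves citrate to supply acetyl-CoA to both branches. Untreated cells had 10.38, 10.51 and 10.61 at 1 h, 10.78, 10.61 and 10.81 at 6 h and 10.08, 10.19 and 10.22 at 24 h. Levels of Acly at 6 h were 11.30, 11.37 and 11.40 with PTH and 11.06, 11.17 and 10.88 with PTHrP. The untreated, PTHrP and PTH arrays formed separate ranges at 6 h. PTH arrays otherwise read 10.61, 10.56, 10.68 at 1 h and 10.28, 10.22, 10.12 at 24 h, and PTHrP arrays 10.71, 10.70, 10.61 at 1 h and 10.07, 10.02, 10.13 at 24 h. The rise with PTH was 1.54-fold (log2 difference 0.62 ± 0.078, SE; adjusted p = 8.42e-07). With PTHrP Acly was 1.23-fold higher (log2 difference 0.30 ± 0.078, SE; adjusted p = 0.006). That call with PTHrP was lost without at least 1 of its 6 arrays. Another probe set of like level gave 0.50 with PTH and 0.091 with PTHrP at 6 h, and the next brightest 0.64 and 0.25.

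Fasn, the synthase that builds palmitate, fell with time and was not called for a ligand over all 27 arrays; with PTHrP at 1 h it was called, at 0.31, without PTHrP replicate 3. Without ligand the level of Fasn was 10.72, 10.97 and 11.00 at 1 h, 11.07, 10.89 and 10.93 at 6 h and 10.23, 10.19 and 10.22 at 24 h. At 6 h the level was 10.93, 10.97 and 10.99 with PTH and 10.82, 10.85 and 10.75 with PTHrP. PTH overlapped untreated at 6 h, and all PTHrP arrays were below. Elsewhere Fasn was at 10.98, 10.89, 11.10 at 1 h and 10.23, 10.31, 10.27 at 24 h with PTH, and at 11.16, 11.25, 10.96 at 1 h and 10.17, 10.25, 10.23 at 24 h with PTHrP. PTH at 6 h gave a difference of 0.0002 ± 0.079 (log2, SE; adjusted p = 0.999). For PTHrP it was -0.16 ± 0.079 (log2, SE; adjusted p = 0.183). The untreated change from 6 to 24 h was -0.75 ± 0.079 (log2, SE; adjusted p = 1.03e-07). Acaca, which makes the malonyl-CoA that Fasn uses, differed by 0.0048 with PTH and 0.016 with PTHrP at 6 h, neither called, and by -0.29 ± 0.066 (SE; adjusted p = 0.00173) in untreated cells from 6 to 24 h.

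Scd1 puts the first double bond into saturated fatty acids. Scd1 stood at 12.60, 12.85 and 13.00 in untreated cells at 1 h, at 12.78, 13.09 and 12.68 at 6 h and at 12.24, 12.31 and 12.24 at 24 h. PTH gave 13.15, 13.18 and 13.13 and PTHrP 13.40, 13.19 and 13.47 at 6 h. The 24 h arrays read 12.11, 11.93 and 11.72 with PTH and 11.92, 11.47 and 12.18 with PTHrP. At 6 h all PTH and PTHrP arrays lay above untreated, and at 24 h all lay below. Levels at 1 h were 12.70, 12.55 and 12.95 with PTH and 13.29, 13.04 and 13.01 with PTHrP. Scd1 was 1.42-fold higher with PTHrP at 6 h (log2 difference 0.50 ± 0.15, SE; adjusted p = 0.0141). PTH at 6 h was not called, at 0.30 ± 0.15 (log2, SE; adjusted p = 0.134). At 24 h PTHrP was not called, at -0.41 ± 0.15 (log2, SE; adjusted p = 0.12). The change of the PTHrP difference from 6 to 24 h was -0.91 ± 0.21 (log2, SE; adjusted p = 0.00397). The 6 h call with PTHrP was lost without 3 of its 6 arrays in turn.

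Scd2, the desaturase of the same kind found in most tissues, was among the brightest of the genes. The untreated arrays read 13.48, 13.53 and 13.49 at 1 h, 13.57, 13.67 and 13.68 at 6 h and 12.81, 12.85 and 12.87 at 24 h. With PTH the 24 h values were 12.69, 12.78 and 12.77, and with PTHrP 12.47, 12.72 and 12.49. All arrays of both ligands lay below untreated at 24 h and above untreated at 6 h. The 6 h differences, neither called, were 0.15 with PTH and 0.18 with PTHrP. Other probe sets of Scd2 gave 0.22 and 0.33, and 0.47 and 0.43, in that order. At the other times PTH gave 13.46, 13.48, 13.54 at 1 h and 13.86, 13.75, 13.74 at 6 h, and PTHrP gave 13.48, 13.58, 13.43 at 1 h and 13.73, 13.87, 13.86 at 6 h. At 24 h PTHrP differed by -0.28 ± 0.069 (log2, SE; adjusted p = 0.00998). PTH was not called, at -0.098 ± 0.069 (log2, SE; adjusted p = 0.469). The untreated change from 6 to 24 h was -0.79 ± 0.069 (log2, SE; adjusted p = 4.79e-09). The 24 h call with PTHrP was lost without 3 of its 6 arrays in turn.

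Scd1 and several other fatty acid genes are abundant in adipocytes, and adipocyte markers were present in these cultures. Of 10 listed, 8 had a probe set of that symbol alone and 7 passed the filter, and Lep did not. Median log2 intensity was 13.07 for Lpl and 11.30 for Adipoq. Their summed intensity ranged from 12665.1 to 16155.6 in untreated cells at 6 h, from 13949.2 to 17074 with PTH and from 15280.2 to 18462.6 with PTHrP. At 24 h the ranges were 14828.8 to 17321.4, 14436 to 15529.1 and 12826.9 to 18816.4. At 6 h 1 of the 7 was called with PTH, Cebpa, lower at -0.57, and with PTHrP the 7 differences, none of them called by limma, ran from -0.14 (Cebpa) to 0.52 (Adipoq). By 24 h PTH had lowered 3 of the 7, Adipoq (-0.86), Pparg (-0.33) and Retn (-1.01), and PTHrP had lowered Retn (-0.90). The other differences at 24 h, called with neither ligand, were -0.98 and -0.27 for Fabp4, -0.55 and -0.21 for Cd36, 0.13 and 0.17 for Lpl, and -0.21 and 0.13 for Cebpa, with PTH and PTHrP in that order. In untreated cells from 1 to 24 h Lpl was the one called, at 0.47. The part of these cells in the fatty acid results was not tested.

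Other probe sets with 1 symbol existed for 19 of the 28 genes. Among those with a mean log2 intensity of at least 5, 19 of 22 had the sign of the call with PTH at 6 h, 8 of 9 with PTHrP at 6 h, and 26 of 26 in untreated cells at 24 h against 1 h. For PTH at 24 h the sign was shared by 1 of 3. Fdft1 had 1 other probe set of like level at 1.25 with PTH at 6 h, and 2 dim ones at 0.044 and 0.036. For Lss the 2 others, also dimmer, stood at -0.083 and -0.030. Idi1 gave 1.19 by both of its probe sets.

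Genes of neighbouring pathways, 41 listed by function, gave 32 with a probe set of that symbol alone, all tested. With PTH at 6 h 9 were higher and 6 lower, and with PTHrP 7 and 2 (medians 0.019 and 0.0905, beside -0.0034 and 0.0307 for all genes). Of all genes, 11.4% were higher and 17.9% lower with PTH, and 8.7% and 12.2% with PTHrP. Acsl4, an acyl-CoA synthetase that prefers arachidonate, differed by 2.13 ± 0.23 (SE; adjusted p = 6.91e-08) with PTH and 0.89 ± 0.23 (SE; adjusted p = 0.00612) with PTHrP. Elovl5, an elongase, differed by 0.72 and 0.26, and the desaturase Fads2 by 0.54 and 0.23. The mitochondrial citrate carrier Slc25a1 and the NADPH-producing malic enzyme Me1, which supply carbon and reducing power, were also called with both: 0.46 and 0.28 for the first, 0.57 and 0.46 for the second. On the lower side were Mylip, a ubiquitin ligase that degrades lipoprotein receptors, at -0.90 ± 0.082 (SE; adjusted p = 4.69e-09) and -0.62 ± 0.082 (SE; adjusted p = 3.97e-06), and Mbtps2, a protease that frees active SREBP, at -0.48 and -0.38.

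Mylip was already lower at 1 h, at -0.35 ± 0.082 (SE; adjusted p = 0.0231) with PTH and -0.37 ± 0.082 (SE; adjusted p = 0.0126) with PTHrP. At 24 h PTH raised 9 of the 32 genes and lowered none, and PTHrP raised 4 and lowered 1, Cyp27a1 (all genes 5.69% higher and 5.96% lower with PTH, 3.09% and 3.02% with PTHrP). Among the higher were Ch25h, which makes an oxysterol, at 0.85 and 0.61, and Fads3 at 0.77 and 0.50. In untreated cells from 1 to 24 h, 10 rose and 8 fell (all genes 11.6% higher and 11.5% lower). Npc1, which exports cholesterol from lysosomes, rose by 0.86, and Abca1, which exports it from the cell, by 0.58. Fads2 changed by -0.95 and Tmem97 by -0.94.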

How the data were processed

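The data are 27 Affymetrix arrays of RNA from KUSA4b10 cells. The deposited values are linear intensities per probe set that the authors made with RMA (the submitters' processing notes name it). The series' design text says that normalization was redone for the deposit; the RMA version is not given in the sources used here. RMA gives the probe intensities of all arrays a common distribution before probe sets are summarised, so a change shared by most genes could be hidden. Intensities ran from 6.79 to 36257, with array medians of 83.15 to 91.08, and all 27 columns were used (columns left out: 0).

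Log2 was taken. Of 45101 probe sets, 64 controls were left out, 34945 had 1 gene symbol in GEO's platform annotation and 932 had several. A gene took its probe set with the highest mean, and 15711 of 18193 genes had log2 of at least 5 on at least 3 arrays. limma 3.58.1 in R 4.3.3 (lmFit, eBayes) fitted 9 group means over 27 arrays, leaving 18 residual degrees of freedom, to which eBayes added 5.54. All tests are two-sided, with Benjamini-Hochberg adjustment over all genes tested and a threshold of 0.05. Precision is limited by the number of arrays, with a median SE of 0.102 between 2 groups and of 0.144 for a change of effect. In data simulated for PTH at 6 h over 15711 genes, with independent noise, log2 changes of 0.5 and of 1 were planted in 100 genes each. Of these 81% and 98% were recovered, and 12 of the unchanged genes were called. In the measured comparison 29.3% of all genes were called, so recovery and false calls there may differ.

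Members and gene lists were chosen with earlier results of these data known. Values on each array are given for up to 4 members per role with the largest absolute difference from untreated cells or over untreated time, and for Insig1, Insig2, Srebf1, Srebf2, Scap, Acly, Fasn, Scd1 and Scd2; Ebp was added after its values were seen. Same-numbered arrays deviated together (every correlation over 0.1) in 1 of 9 pairs of groups, untreated and PTHrP at 1 h (0.188 to 0.449). Alternatives were the mean of all probe sets of a gene, no filter, cyclic loess, only the groups compared, array weights, replicate blocks and each array left out. The array files name no genome build; promoter coordinates are RefSeq's.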

Additional observations from a re-analysis of the deposited data

Results flagged for a closer look

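The ligand difference from untreated cells differed between 6 and 24 h for the genes below, by limma's test of that change (24 h minus 6 h, log2, 3 arrays a group, adjusted p under 0.05 over all genes). With PTH the change was -0.94 for Hmgcs1, -1.27 for Pmvk, -1.14 for Idi1 and -0.76 for Fdps among the mevalonate genes. It was -0.88 for Fdft1, -1.22 for Sqle, -1.13 for Cyp51, -0.58 for Msmo1, -0.66 for Nsdhl, -0.82 for Hsd17b7 and 0.79 for Ebp among the sterol genes. It was 0.34 for Insig2, -0.41 for Srebf2 and 0.39 for Scap among the genes of sensing. It was -0.58 for Acly and -0.64 for Scd1 among the fatty acid genes. With PTHrP it was -0.73 for Pmvk, -0.55 for Fdft1, -0.83 for Sqle, -0.46 for Nsdhl, 0.58 for Ebp, -0.39 for Acly, -0.91 for Scd1 and -0.46 for Scd2. Adjusted p-values ran from 3.08e-06 (Sqle, PTH) to 0.0486 (Insig2, PTH). Negative values are ligand differences that were smaller, or more negative, at 24 h. The positive values belong to Ebp, Insig2 and Scap, whose differences were negative at 6 h and positive at 24 h. The 6 untreated arrays enter both ligands' tests. With each of the 12 arrays of a test left out in turn, 12 of the 16 PTH changes and 4 of the 8 PTHrP changes stayed called.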

How the results depend on the processing

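No result reversed. Of the 121 calls among the 28 genes, 121 remained with array weights, 119 with cyclic loess, 117 with no filter on dim genes, 110 with only the groups compared, 106 with the mean of all probe sets of a gene, and 3084 of 3267 over all single arrays left out. With PTH at 1 h the count was 1, and it was 4 with only the groups compared and 4 with array weights. With PTHrP at 1 h it was 1, against 0 with only the groups compared and 9 with array weights. With PTHrP at 6 h, array weights gave 17 in place of 10. With PTH at 24 h the count was 2, against 1 with no filter, 1 with only the groups compared and 11 with array weights. With PTHrP at 24 h it was 2, against 1 with only the groups compared and 4 with array weights, and PTHrP against PTH at 24 h rose from 0 to 5 with array weights. Untreated cells at 6 against 1 h went from 0 to 1 with the mean of all probe sets, cyclic loess or only the groups compared, and to 3 with array weights. The weights gave PTHrP 1 h replicate 3 a weight of 0.127 and PTHrP 6 h replicate 3 one of 7.214. Over all comparisons they added 54 calls among the 28 genes and lost 0. Beyond that, the cause of these moves was not tested. Shares of all genes called under the alternatives are not given, so the counts here are not set against all genes. Cyclic loess moved the median of all genes by at most 0.04 (log2).

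With the replicate number as a block within each time, 110 of the 121 calls remained. The 11 lost were Cyp51 with PTH at 1 h, Scap with PTH and Lss and Srebf2 with PTHrP at 6 h, Lss for PTHrP against PTH at 6 h, Fdft1 with PTH at 24 h, Acaca in untreated cells at 24 against 1 h, and the changes of effect of Insig2 and Scd1 (PTH) and Acly and Nsdhl (PTHrP). The block left 0 genes called with PTH at 1 h and 1 with PTH at 24 h. A block for the untreated and PTHrP arrays at 1 h alone, chosen after seeing the data, kept 120 calls and lost Lss with PTHrP at 6 h.

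Leaving out 1 array at a time, counts of genes called ran as follows. For PTH they were 0 to 3 at 1 h, 16 to 20 at 6 h and 1 to 4 at 24 h. For PTHrP they were 0 to 7, 5 to 11 and 0 to 2. For PTHrP against PTH they were 0 to 0, 8 to 15 and 0 to 0. In untreated cells they were 0 to 1 for 6 against 1 h, 21 to 23 for 24 against 1 h and 22 to 24 for 24 against 6 h. The change of effect gave 12 to 17 for PTH and 5 to 10 for PTHrP. Shares of all genes called in these fits are not given, so the counts are not set against all genes.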
